A study of Homo sapiens with 12 samples.

Results

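The proteasome is the protease that degrades most ubiquitin-tagged proteins. Its genes were followed here in human neurons as transcripts whose deposited gene name begins with PSMA, PSMB, PSMC, PSMD, PSME, PSMF or PSMG, or is POMP or ADRM1. That rule found 48 transcripts, each of a different gene, among the 10872 transcripts that carry a gene name and the 19972 in the whole count table. They comprise 14 core subunits, 18 cap subunits, 4 interferon-inducible genes (the immunoproteasome subunits PSMB8 and PSMB10 and the activator subunits PSME1 and PSME2), 3 other regulators, 8 assembly chaperones, and PSME3IP1, a protein that binds PSME3 and is no subunit. PSMB9, the partner immunoproteasome subunit, had no transcript under its name and was not analysed here, and neither were PSMA8 and PSMB11.

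The neurons were induced from H1 human embryonic stem cells by overexpression of the transcription factor Ngn2 and were collected at day in vitro 14, without added glia. The mutant cultures were homozygous for an allele of LLPH that the labels call Nterm (Nterm/Nterm), and the controls were wild type at LLPH (wt/wt). The sources used here do not give what the Nterm allele changes, nor the number of clones or cultures behind the replicates, so each p-value measures only the spread between these libraries. Both genotypes overexpressed Ngn2 and received doxycycline (2 µg/mL) and cytosine arabinoside (4 µM), which acts against dividing cells, and both were lysed with cycloheximide (100 µg/mL), which halts ribosomes. Each genotype had 3 Ribo-seq libraries, which count ribosome footprints on mRNA, and 3 polyA RNA-seq libraries.

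Footprint libraries held 12652833 to 16356419 counts and RNA libraries 18944427 to 25089790, and a proteasome transcript had between 155 and 6982 footprint counts and between 111 and 7483 RNA counts in a library. Genotypes follow the sample titles, because the genotype tag of the 6 Ribo-seq samples names the opposite genotype. LLPH itself averaged 2.4 ± 0.71 CPM (counts scaled by the size of the library) in Nterm/Nterm footprints and 7.2 ± 0.62 CPM in wt/wt footprints (SD, n = 3 each). Its RNA averaged 30.6 ± 1.14 CPM in Nterm/Nterm and 27.8 ± 0.807 CPM in wt/wt (SD, n = 3 each). The footprint difference, -1.60 ± 0.19 on the log2 scale, passed the test (edgeR quasi-likelihood, adjusted p = 1.77e-05), and the RNA difference did not (adjusted p = 0.135).

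The core particle is a barrel of alpha rings around beta rings, and the beta rings hold the peptide-cutting sites. A regulatory cap binds ubiquitin-tagged proteins, unfolds them with a ring of ATPases and feeds them into the barrel. Under interferon signalling, cells replace the constitutive catalytic subunits PSMB5, PSMB6 and PSMB7 with PSMB8, PSMB9 and PSMB10, and the PSME1 and PSME2 subunits of the PA28 activator bind the ends of the core, which changes the peptides made for presentation by HLA class I molecules.

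The 4 interferon-inducible genes were lower in Nterm/Nterm neurons in both RNA and footprints, and no other proteasome gene passed either test. Their proximal promoters are printed because these genes moved together and because all 4 share a stretch of the same letters. The windows of 300 bases, 250 before and 50 from the annotated gene start, are those of RefSeq on GRCh38.p14, each written on the strand of its gene. Capitals mark the match to GAAANNGAAA, the core of the interferon-stimulated response element, searched on both strands. The windows are chr6:32843998-32844297 for PSMB8 (minus strand), chr16:67936801-67937100 for PSMB10 (minus strand), chr14:24135944-24136243 for PSME1 (plus strand) and chr14:24146561-24146860 for PSME2 (minus strand).
PSMB8: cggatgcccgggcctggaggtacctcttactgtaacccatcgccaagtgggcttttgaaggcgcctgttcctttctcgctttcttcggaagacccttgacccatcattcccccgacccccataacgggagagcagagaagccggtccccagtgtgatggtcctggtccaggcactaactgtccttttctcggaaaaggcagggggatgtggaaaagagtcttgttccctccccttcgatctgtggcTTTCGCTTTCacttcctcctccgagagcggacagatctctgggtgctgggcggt
PSMB10: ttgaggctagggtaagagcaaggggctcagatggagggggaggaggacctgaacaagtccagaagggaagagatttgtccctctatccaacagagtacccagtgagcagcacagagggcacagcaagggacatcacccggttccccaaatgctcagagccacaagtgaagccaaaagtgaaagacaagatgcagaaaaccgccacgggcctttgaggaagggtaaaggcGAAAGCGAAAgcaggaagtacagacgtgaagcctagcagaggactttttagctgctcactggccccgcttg
PSME1: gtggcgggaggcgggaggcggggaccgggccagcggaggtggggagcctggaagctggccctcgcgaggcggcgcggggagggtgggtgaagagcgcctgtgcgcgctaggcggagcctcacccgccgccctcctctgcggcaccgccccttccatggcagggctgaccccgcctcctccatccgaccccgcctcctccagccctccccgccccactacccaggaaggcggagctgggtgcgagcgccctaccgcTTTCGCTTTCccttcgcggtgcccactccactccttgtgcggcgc
PSME2: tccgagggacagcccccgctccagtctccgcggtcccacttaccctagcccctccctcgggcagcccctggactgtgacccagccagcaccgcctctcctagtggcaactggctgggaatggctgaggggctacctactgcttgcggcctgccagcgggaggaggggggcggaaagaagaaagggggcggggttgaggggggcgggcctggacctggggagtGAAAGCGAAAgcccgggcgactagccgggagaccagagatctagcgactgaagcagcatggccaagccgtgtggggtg

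In all 4 windows the matched letters were GAAAGCGAAA, read on the gene's strand in PSMB10 and PSME2 and on the opposite strand in PSMB8 and PSME1. Counted along the window, the match lay at bases 230 to 239 in PSMB10, 223 to 232 in PSME2, 247 to 256 in PSMB8 and 256 to 265 in PSME1, where base 251 is the gene start. A second RefSeq window of PSMB8, chr6:32844630-32844929, held no match. Of the 38 other proteasome genes with a window, 3 held GAAANNGAAA (PSMA4, PSMB4 and PSMG4), and 1 of these, PSMG4, held GAAAGCGAAA. Over all 35116 RefSeq windows, 3.57% held GAAANNGAAA and 0.0997% held GAAAGCGAAA, which is 4.38% and 0.125% of the 27305 genes. GAAAGCGAAA is the string read from these 4 windows, so its presence in all 4 cannot be weighed against its share. The motifs were searched after the expression values were known, and a match describes letters and no bound factor.

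Other motifs were counted in the same windows, and the shares that follow are of all 27305 genes with a window. CCAAT, the NF-Y box, was in 0 of the 4 interferon-inducible genes and in 20 of the 38 others, against 39.7%. CCGGAAG, an ETS motif, was in 0 of the 4 and in 16 of the 38, against 12.2%, and the overlapping motif GGAAGT was in 2 of the 4 and in 21 of the 38, against 26.6%. TGACNNNGC, the antioxidant response element that NFE2L1 and NFE2L2 can bind, was in PSME1 and PSME2 and in 13 of the 38, against 16.1%. GGGCGG, the GC box, was in 3 of the 4 and in 26 of the 38, against 48.3%. TTCNNNGAA and TTCNNNNGAA, spacings of a STAT site, were in PSMB8 alone among the 4 and in 6 and 1 of the 38, against 9.38% and 7.80%. GGGNNNTTCC, an NF-kappaB-like motif, was in 0 of the 4 and in 4 of the 38, against 7.83%. All were searched on both strands.

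Among the 48 transcripts, 4 were lower and 0 higher in Nterm/Nterm RNA (edgeR quasi-likelihood test, Benjamini-Hochberg adjusted p under 0.05 over all transcripts tested). The background was 17.9% of 14659 transcripts called, 10.6% lower and 7.25% higher. With the replicate number as a block, which the RNA libraries' shared deviations allow, the background was 30.7%, and the same count of 4 proteasome transcripts was called. In footprints 4 were lower and 0 higher as well, against a background of 13.3% of 13566 transcripts, 8.91% lower and 4.36% higher. The 4 were PSMB8, PSMB10, PSME1 and PSME2 in both assays. The other 44 proteasome transcripts gave 0 calls with edgeR, DESeq2 and limma-voom in either assay, with 0 at an unadjusted p under 0.05 in RNA and 4 in footprints (PSMA1, PSMA7, PSMB5 and PSMC5, all higher), against 32.3% of all transcripts in RNA and 27.3% in footprints. In these bulk libraries fewer cells of a type and less RNA per cell cannot be told apart.

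**Figure D1:**
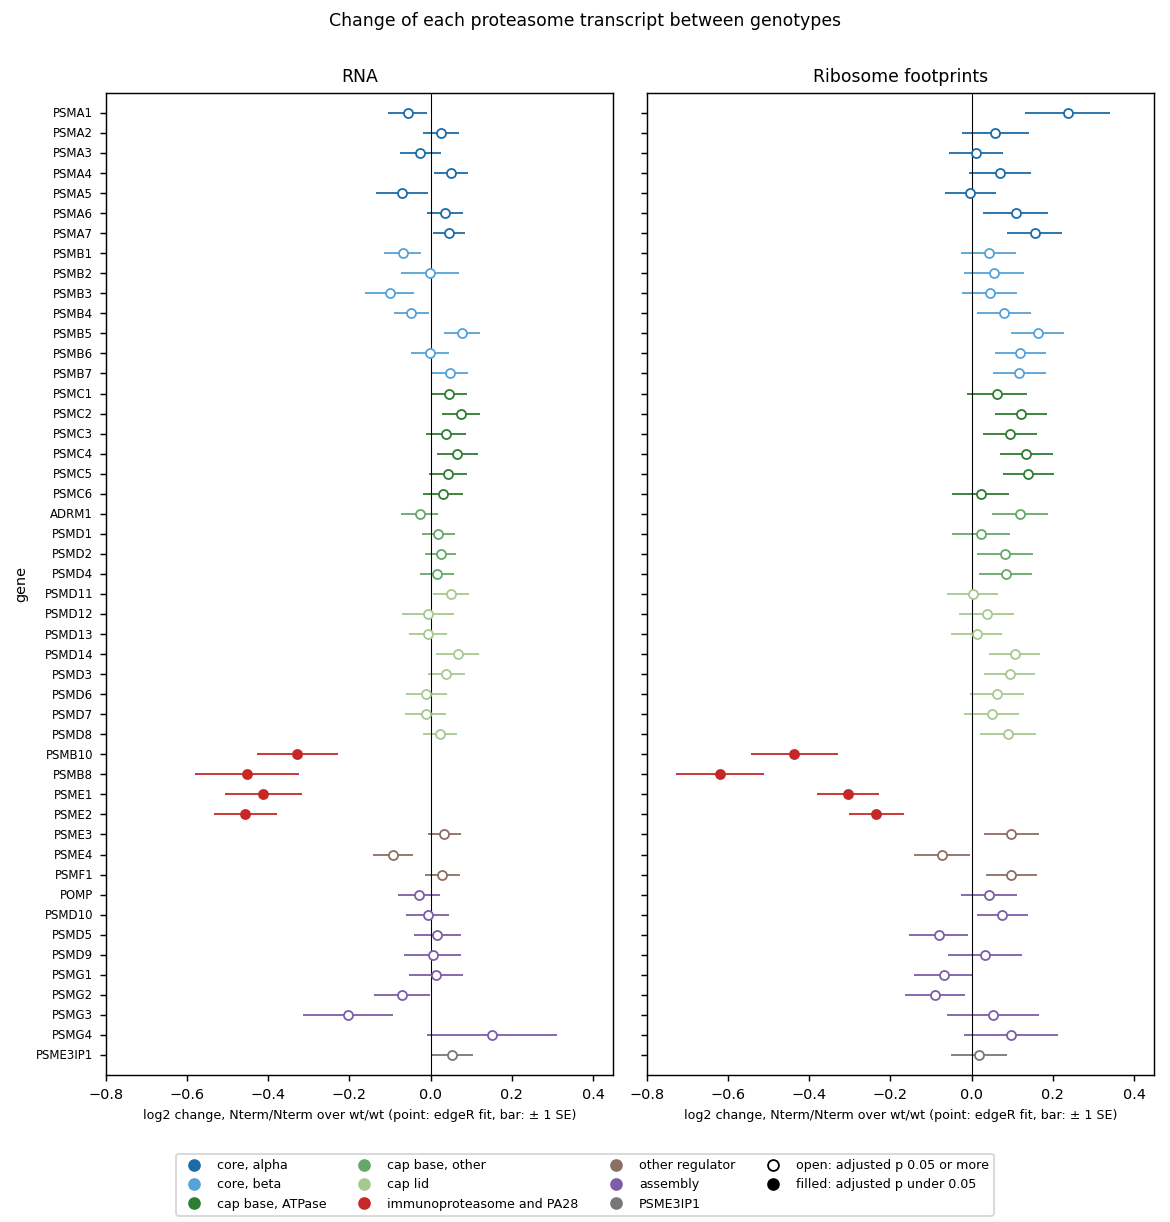
Log2 change of each of the 48 proteasome transcripts, Nterm/Nterm over wt/wt, in RNA (left) and in ribosome footprints (right), as the edgeR estimate with a bar of 1 SE on either side. The red points of PSMB8, PSMB10, PSME1 and PSME2 are the filled (adjusted p under 0.05) ones and lie between -0.62 and -0.23, while the other 44 lie between -0.20 and 0.24.

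PSMB8 encodes the immunoproteasome counterpart of the chymotrypsin-like subunit PSMB5. Its RNA was at 12.02, 11.3 and 8.54 CPM in the Nterm/Nterm libraries, against 16.3, 14.0 and 13.1 CPM in the wt/wt libraries. Its footprints were at 22.8, 22.9 and 18.0 CPM in Nterm/Nterm, against 34.7, 34.8 and 27.7 CPM in wt/wt. The genotypes did not overlap in either assay, and replicate 3 was the lowest library of its genotype in both. The log2 change was -0.45 ± 0.13 in RNA (SE, edgeR adjusted p = 0.0308) and -0.62 ± 0.11 in footprints (adjusted p = 0.000834), so the footprint level was 0.651 times that of wt/wt. The sources used here do not say whether counting used strand, so reads of PSMB8 and of its antisense gene PSMB8-AS1 cannot be told apart.

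PSMB10 is the counterpart of the trypsin-like subunit PSMB7. Its RNA was at 12.8, 11.7 and 10.97 CPM in Nterm/Nterm, against 15.3, 16.0 and 13.3 CPM in wt/wt. Its footprints were at 26.0, 22.6 and 18.6 CPM in Nterm/Nterm, against 29.6, 32.6 and 28.2 CPM in wt/wt. Every Nterm/Nterm library was below every wt/wt library, with the smallest gap between Nterm/Nterm replicate 1 and wt/wt replicate 3. The log2 change was -0.33 ± 0.10 in RNA (SE, edgeR adjusted p = 0.0400) and -0.44 ± 0.11 in footprints (adjusted p = 0.0103).

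PSME1, the alpha subunit of the PA28 activator, had RNA at 39.3, 39.8 and 31.0 CPM in Nterm/Nterm, against 52.3, 50.5 and 43.3 CPM in wt/wt. Its footprints were at 113, 114 and 93.3 CPM in Nterm/Nterm, against 135, 134 and 127 CPM in wt/wt. Replicate 3 was again the lowest library of each genotype, and the genotypes did not overlap. The log2 change was -0.41 ± 0.10 in RNA (SE, edgeR adjusted p = 0.0125) and -0.30 ± 0.08 in footprints (adjusted p = 0.0108).

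PSME2, the beta subunit of PA28, had RNA at 36.3, 36.3 and 30.2 CPM in Nterm/Nterm, against 49.9, 46.9 and 44.0 CPM in wt/wt. Its footprints were at 101, 109 and 94.9 CPM in Nterm/Nterm, against 119, 121 and 119 CPM in wt/wt. The wt/wt footprint libraries were nearly level, and every Nterm/Nterm library lay below them. The log2 change was -0.46 ± 0.08 in RNA (SE, edgeR adjusted p = 0.00277) and -0.23 ± 0.07 in footprints (adjusted p = 0.0256).

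**Figure D2:**
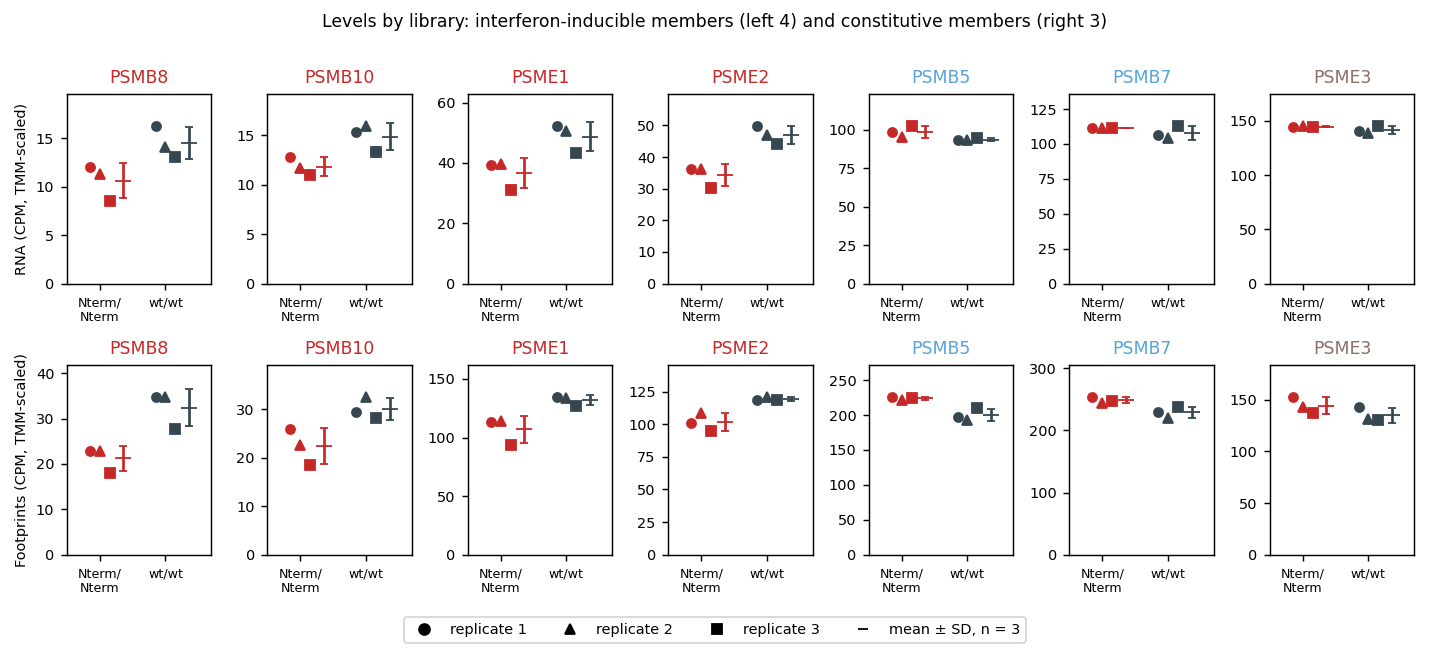
RNA (top) and footprint (bottom) levels in CPM, scaled with TMM factors, of 4 interferon-inducible and 3 constitutive proteasome genes in each library, Nterm/Nterm left and wt/wt right, with mean and SD of 3 libraries. In PSMB8, PSMB10, PSME1 and PSME2 the red Nterm/Nterm points lie below the wt/wt points in both rows, whereas PSMB5 lies above in both rows without passing the test.

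Several of these calls were lost without 1 library, in fits without the replicate block. RNA calls over all transcripts numbered 841 without wt/wt replicate 1, 964 without wt/wt replicate 2, 1729 without Nterm/Nterm replicate 3 and 2851 without Nterm/Nterm replicate 2, against 2624 with all libraries. Footprint calls numbered 965 without Nterm/Nterm replicate 3, 978 without wt/wt replicate 2 and 1252 without Nterm/Nterm replicate 1, against 1800. Without wt/wt RNA replicate 1 or 2, PSME2 alone kept its RNA call (adjusted p = 0.0236 and 0.0173), while PSME1 had adjusted p = 0.0758 and 0.0618, PSMB8 0.155 and 0.0830, and PSMB10 0.146 and 0.165. The log2 changes in these fits were -0.36 and -0.39 for PSME1, -0.36 and -0.47 for PSMB8, and -0.31 and -0.28 for PSMB10. Without Nterm/Nterm RNA replicate 3, PSMB8 (-0.31, adjusted p = 0.0867) and PSMB10 (-0.28, adjusted p = 0.115) were not called, and PSMB10 was not called without Nterm/Nterm RNA replicate 2 (0.0724). Without Nterm/Nterm footprint replicate 3, PSMB8 alone kept its footprint call (adjusted p = 0.00273), at a log2 change of -0.51. Without wt/wt footprint replicate 2, PSMB10 (adjusted p = 0.0655) and PSME2 (0.0850) were not called, and without Nterm/Nterm footprint replicate 1 PSME2 (0.0724) was not. No alternative turned the direction of an RNA or footprint change of these 4 genes under the titles' genotypes.

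Ratios within a library do not depend on its scaling and set each induced subunit beside the one it replaces. PSMB8 had 0.108 ± 0.0216 RNA counts per count of PSMB5 in Nterm/Nterm and 0.155 ± 0.0186 in wt/wt (SD, n = 3 each). In footprints the same ratio was 0.0948 ± 0.0126 in Nterm/Nterm and 0.163 ± 0.0270 in wt/wt. These count ratios compare genotypes and are no ratio of molecules, because transcript length differs between the genes. PSMB10 counts per PSMB7 count were 0.106 ± 0.00828 in Nterm/Nterm RNA and 0.138 ± 0.0186 in wt/wt RNA, and 0.0900 ± 0.0137 in Nterm/Nterm footprints and 0.132 ± 0.0149 in wt/wt footprints. The Nterm/Nterm ratios lay below the wt/wt ratios in every library for both pairs and both assays. The ratio of PSME1 to PSME2 was 1.07 ± 0.0364 in Nterm/Nterm RNA and 1.04 ± 0.0478 in wt/wt RNA, and 1.05 ± 0.0669 in Nterm/Nterm footprints and 1.10 ± 0.0328 in wt/wt footprints, and the genotypes overlapped.

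The 4 genes did not move alone. Of 16 named interferon-response genes, 13 were lower in RNA and 0 higher, with a median log2 change of -0.63 against 0.00 over all transcripts tested. In footprints 12 of 15 tested were lower and 0 higher, with a median of -0.55 against 0.01. The shares of all transcripts called lower were 10.6% in RNA and 8.91% in footprints. IRF1, an interferon-induced transcription factor, changed by -0.44 ± 0.11 in RNA (adjusted p = 0.0164) and by -0.48 ± 0.09 in footprints (adjusted p = 0.00145). GBP2, an interferon-induced GTPase, had the lowest change of the list, -1.22 ± 0.15 in RNA and -1.42 ± 0.13 in footprints. IRF9 is listed at 0 footprint counts in every library, a value left uncertain because the sources used here do not say how shared reads were assigned, and had no call in RNA (-0.24 ± 0.10, adjusted p = 0.124). IFI6 lay at 0.02 in RNA and 0.19 in footprints, without a call.

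Of 12 named antigen-presentation genes, 9 were lower in RNA with a median of -0.49, and 4 were lower in footprints with a median of -0.24. None of the 12 was higher. Over all transcripts tested, 10.6% were lower in RNA and 8.91% in footprints. B2M, the light chain of HLA class I, changed by -0.53 ± 0.08 in RNA (adjusted p = 0.00121), and its footprint change of -0.23 ± 0.08 did not pass (adjusted p = 0.0655). TAP1, a subunit of the peptide transporter, changed by -0.35 ± 0.09 in RNA (adjusted p = 0.0205) and by -0.25 ± 0.09 in footprints (adjusted p = 0.0672). TAP2, its partner, had -0.22 ± 0.08 in RNA (adjusted p = 0.0617). In RefSeq gene order, PSMB8 lies between TAP2 and TAP1 on chromosome 6, and PSME1 and PSME2 are separated by EMC9 alone on chromosome 14, followed by RNF31 and IRF9. PSMB10 lies between CTRL and LCAT on chromosome 16.

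**Figure D3:**
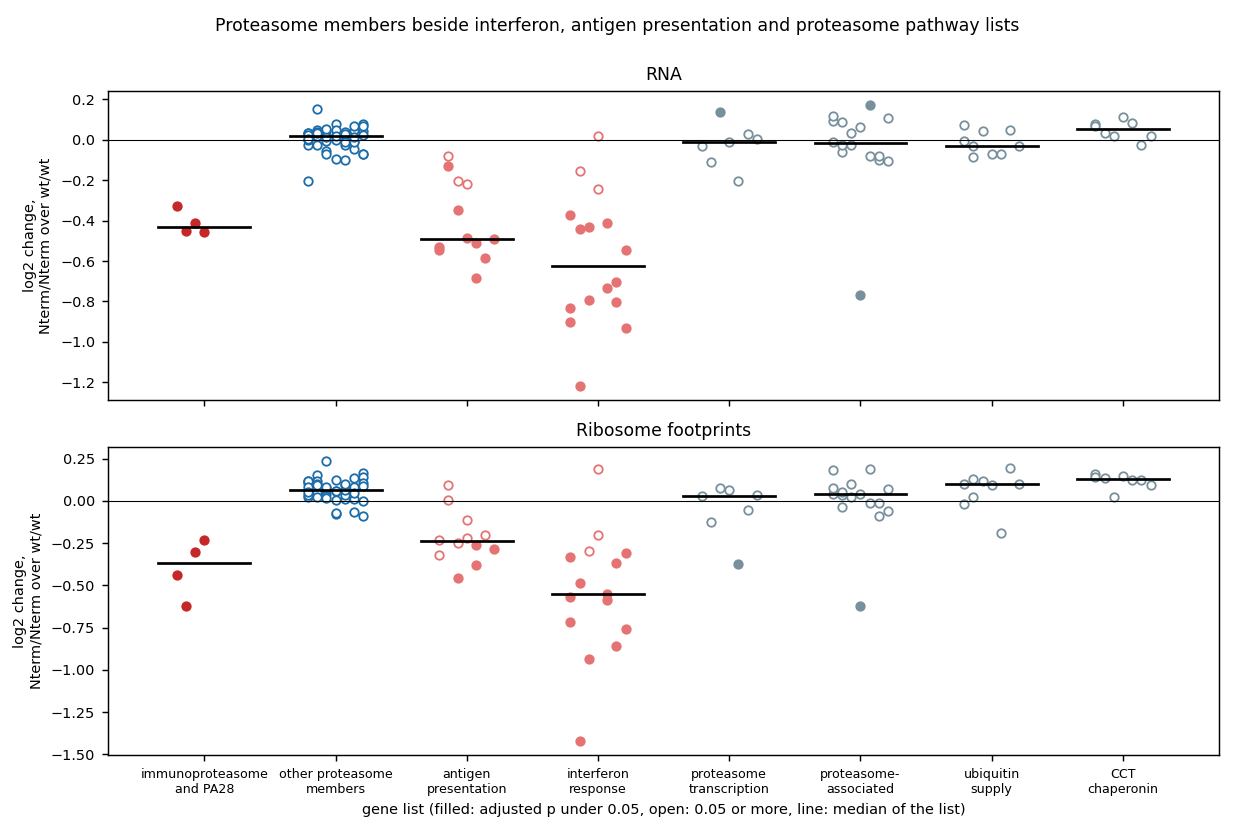
Log2 change, Nterm/Nterm over wt/wt, of each gene of 8 lists in RNA (top) and in footprints (bottom), with filled points for adjusted p under 0.05 and a line at each list's median. The interferon-inducible proteasome genes, the interferon-response list and the antigen-presentation list have medians between -0.63 and -0.24, while the medians of the other 5 lists lie between -0.03 and 0.13.

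Markers of cell types differed between the genotypes as well. The background over all transcripts was 10.6% lower and 7.25% higher in RNA, and 8.91% lower and 4.36% higher in footprints. Of 10 named mesenchymal markers, 8 were lower and 1 (THY1) higher in RNA, and 6 were lower in footprints; none was at 0. Their summed RNA level ranged from 3153 to 4102 CPM in Nterm/Nterm and from 4683 to 5728 CPM in wt/wt, and their summed footprint level from 4460 to 5926 CPM in Nterm/Nterm and from 5933 to 7146 CPM in wt/wt. In RNA, replicate 3 was the lowest library of each genotype, as it was for the summed level of the 4 proteasome genes. Replicate 3 was also lowest in RNA of each genotype for the summed interferon-response, antigen-presentation, progenitor and pluripotency lists. The shared order is therefore not particular to the mesenchymal markers. That sum of the 4 was 100.5, 99.1 and 80.6 CPM in Nterm/Nterm RNA, against 134, 127 and 114 CPM in wt/wt RNA. In Nterm/Nterm footprints replicate 3 was the lowest library for both sums. In wt/wt footprints the mesenchymal sum was lowest in replicate 2 (7146, 5933 and 6589 CPM by replicate). The sum of the 4 was lowest there in replicate 3 (318, 322 and 301 CPM). So were the interferon-response and pluripotency sums, while the antigen-presentation and progenitor sums were lowest there in replicate 2. Of 12 neuronal markers, 8 were higher and 0 lower in RNA, with summed levels of 16988 to 18359 CPM in Nterm/Nterm and 14782 to 15821 CPM in wt/wt. Of 9 named progenitor markers 7 were lower and 1 higher in RNA, with sums of 937 to 1091 CPM in Nterm/Nterm and 1203 to 1304 CPM in wt/wt, and of 4 named pluripotency markers 2 were lower. In footprints 3 neuronal markers were higher and 0 lower, with sums of 8453 to 8717 CPM in Nterm/Nterm and 6188 to 7976 CPM in wt/wt. Of the progenitor markers 6 were lower and 1 higher in footprints. Their footprint sums overlapped, at 1374 to 1614 CPM in Nterm/Nterm and 1396 to 1731 CPM in wt/wt. SLC1A3, the 1 named glial marker, was not called. The part of these cell types in the change of the 4 genes was not tested.

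The core particle showed no change that passed the test. Over its 14 subunits the RNA changes ran from -0.10 for PSMB3 to 0.08 for PSMB5, with a median of -0.0021. The footprint changes ran from -0.0028 for PSMA5, an alpha-ring subunit, to 0.24 for PSMA1, another, with a median of 0.07, and 13 of 14 were positive. PSMB5 footprints were at 226, 222 and 224 CPM in Nterm/Nterm, against 197, 193 and 210 CPM in wt/wt. Its footprint change of 0.16 ± 0.07 did not pass after adjustment over all transcripts (edgeR adjusted p = 0.106), although the genotypes did not overlap. PSMB6, the caspase-like subunit, had footprints at 190, 189 and 188 CPM in Nterm/Nterm and 171, 174 and 177 CPM in wt/wt, a change of 0.12 ± 0.06 (adjusted p = 0.223). PSMB7 had 0.12 ± 0.07 (adjusted p = 0.257).

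In the cap, too, no subunit was called. The RNA changes of its 18 subunits ran from -0.03 for the ubiquitin receptor ADRM1 to 0.08 for the ATPase PSMC2. All 18 footprint changes were above 0, from 0.0025 for PSMD11 to 0.14 for the ATPase PSMC5, with a median of 0.08. PSMC5 footprints were at 202, 200 and 200 CPM in Nterm/Nterm, against 182, 177 and 188 CPM in wt/wt (0.14 ± 0.06, edgeR adjusted p = 0.155). Medians were 0.11 for the 6 ATPases, 0.08 for the 4 other base subunits, which include the ubiquitin receptors PSMD4 and ADRM1, and 0.06 for the 8 lid subunits. PSMD14, the deubiquitinase of the lid, had the highest lid value, 0.11 ± 0.06 (adjusted p = 0.291).

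No regulator outside the interferon-inducible set was called. PSME3, the PA28 subunit that forms a nuclear activator without PSME1 and PSME2, had RNA at 144, 146 and 145 CPM in Nterm/Nterm, against 140, 138 and 145 CPM in wt/wt, with overlapping genotypes. Its change was 0.03 ± 0.04 in RNA (adjusted p = 0.606) and 0.10 ± 0.07 in footprints (adjusted p = 0.378). PSME4, the PA200 activator, had the lowest values, -0.09 ± 0.05 in RNA (adjusted p = 0.223) and -0.07 ± 0.07 in footprints (adjusted p = 0.537). PSMF1, an inhibitor-like regulator that binds the core, had 0.03 ± 0.04 in RNA and 0.10 ± 0.06 in footprints.

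The assembly chaperones were on either side of 0. POMP, which guides maturation of the beta ring, had -0.03 ± 0.05 in RNA and 0.04 ± 0.07 in footprints. PSMG1 and PSMG2, which act as a pair in alpha-ring assembly, had footprint changes of -0.07 ± 0.07 and -0.09 ± 0.07, and PSMG2 was the lowest of the 44. PSMG3 and PSMG4, the other pair, had the widest RNA changes, -0.20 ± 0.11 (adjusted p = 0.226) and 0.15 ± 0.16 (adjusted p = 0.552), and the fewest counts. PSMG4 RNA was at 7.83, 6.04 and 5.18 CPM in Nterm/Nterm, against 6.15, 5.44 and 5.51 CPM in wt/wt, so that the libraries interleaved. The cap-base chaperones PSMD5, PSMD9 and PSMD10 had footprint changes of -0.08, 0.03 and 0.08, and none was called. PSME3IP1 had 0.05 ± 0.05 in RNA and 0.02 ± 0.07 in footprints.

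Without the 4 interferon-inducible genes, 39 of 44 footprint changes were positive, with a median of 0.07 against 0.01 over all transcripts, of which 52.1% were positive. In RNA 26 of 44 were positive, with a median of 0.02. The genotypes' footprint levels did not overlap for 14 of the 44, all higher in Nterm/Nterm, against a background of 14.8% of transcripts higher without overlap and 15.9% lower. In RNA 2 of the 44 did not overlap, PSMA4 and PSMB5, both higher, against a background of 17.4% higher and 18.8% lower. Under library totals alone 33 of the 44 footprint changes were positive and the median was 0.04, and the median of all transcripts was then -0.02. The distance between the medians was 0.06 under either scaling. The 8 subunits of the CCT chaperonin, another large complex, had a median footprint change of 0.13, with no call.

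Translational efficiency sets the footprints of a transcript against its RNA. Of the 48 transcripts, 0 were called by the interaction of assay and genotype (edgeR quasi-likelihood, adjusted p under 0.05), against a background of 0.0203% of 14786 transcripts, which is 3 transcripts. With limma-voom 0 of the 48 were called. DESeq2 gave no adjusted p for 43 of the 48, the 4 interferon-inducible genes among them, so it tests only 5 of them here (PSMA7, PSMD1, PSMD2, PSMD4 and PSMD8), of which 0 were called. At an unadjusted p under 0.05, where 4.60% of all transcripts lay, there were 2 of the 48, PSMA1 (0.29 ± 0.10, edgeR adjusted p = 0.910) and PSME2 (0.22 ± 0.10, edgeR adjusted p = 1.00). The other interferon-inducible genes had -0.17 ± 0.18 (PSMB8), -0.11 ± 0.16 (PSMB10) and 0.11 ± 0.13 (PSME1). The median of the other 44 was 0.06 against 0.01 over all transcripts. Across the 48 transcripts, RNA and footprint changes had a Pearson correlation of 0.83, across the 44 without the interferon-inducible genes 0.33, and across all 13422 transcripts tested in both assays 0.79. These correlations are descriptions across genes of the same 12 libraries.

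The authors' deposited table gives the mean footprint to RNA ratio of each transcript. In that deposited table the 48 proteasome transcripts had a median ratio of 1.99 in Nterm/Nterm and 2.03 in wt/wt, while all 10932 transcripts had medians of 1.10 in Nterm/Nterm and 1.11 in wt/wt. Gene by gene, the authors' deposited ratio was higher in Nterm/Nterm than in wt/wt for 38 of the 48 (14 of 14 core and 15 of 18 cap subunits), against 50.2% of that table. In wt/wt 41 of the 48 lay above the median of the authors' deposited table. In the authors' deposited table PSMB3, a beta-ring subunit, had the highest ratio of the 48 in Nterm/Nterm (3.26, against 2.98 in wt/wt). PSMA3, an alpha-ring subunit, had the highest in wt/wt (3.13 in Nterm/Nterm, 3.07 in wt/wt, in the authors' deposited table). A group of 3 alpha-ring subunits stood far below the rest in the authors' deposited table. PSMA1 had a ratio of 0.245 in Nterm/Nterm and 0.201 in wt/wt in that deposited table. PSMA2 had 0.403 in Nterm/Nterm and 0.397 in wt/wt, and PSMA6 0.352 in Nterm/Nterm and 0.338 in wt/wt, in the authors' deposited table.

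In these 3 genes the scaled footprint level was below the scaled RNA level in both genotypes. PSMA1 averaged 18.6 ± 1.06 footprint CPM in Nterm/Nterm and 15.7 ± 1.33 in wt/wt, beside 72.9 ± 3.07 RNA CPM in Nterm/Nterm and 75.8 ± 1.24 in wt/wt (SD, n = 3 each). PSMA2 averaged 39.8 ± 2.28 footprint CPM in Nterm/Nterm and 38.2 ± 3.07 in wt/wt, and PSMA6 40.9 ± 1.01 in Nterm/Nterm and 37.9 ± 3.12 in wt/wt. The sources used here do not say how reads shared by transcripts were assigned, so the low ratios of these 3 genes are uncertain. The other 4 members below the wt/wt median of the authors' deposited table were PSMD9 (0.614 in Nterm/Nterm, 0.608 in wt/wt), PSME3 (0.954 in Nterm/Nterm, 0.922 in wt/wt), PSMG3 (1.04 in Nterm/Nterm, 0.881 in wt/wt) and PSME3IP1 (0.774 in Nterm/Nterm, 0.800 in wt/wt). The authors' deposited p-values, which are not adjusted, were under 0.05 for 0 of the 48, against 4.67% of that table, and the lowest was 0.0517 for PSME2.

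**Figure D4:**
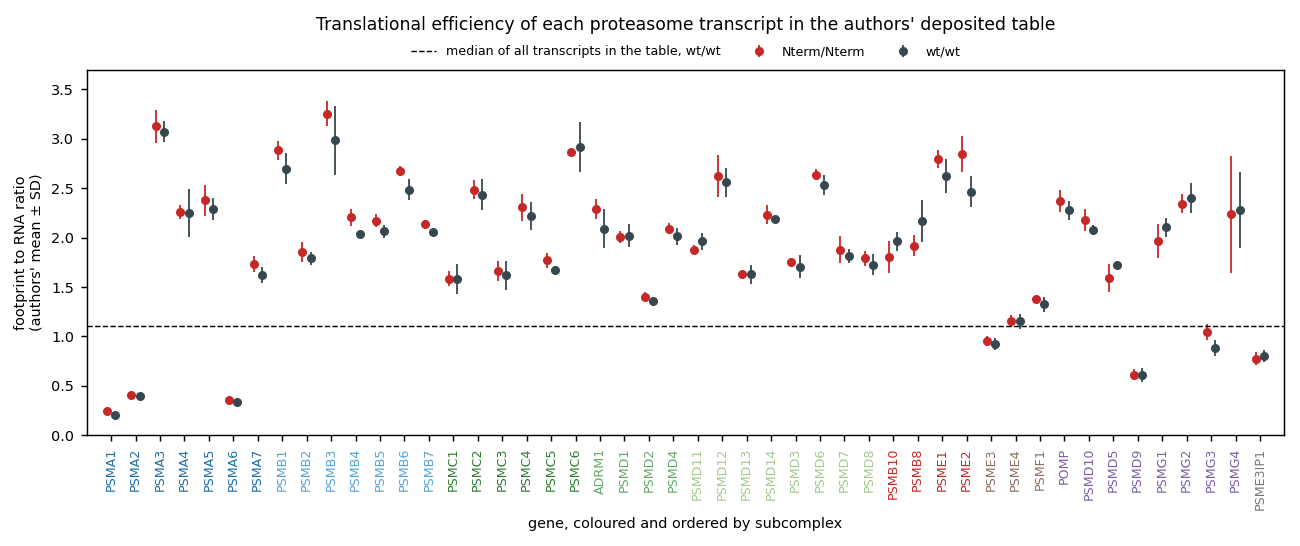
Footprint to RNA ratio of each proteasome transcript in the authors' deposited table, as the authors' mean and SD, with Nterm/Nterm (red) left of wt/wt (dark) for each gene and a dashed line at the wt/wt median of all transcripts, 1.11. PSMA1, PSMA2 and PSMA6 lie at 0.201 to 0.403 in both genotypes, and 41 of 48 lie above the line in wt/wt.

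Genes that act on the proteasome without being members by name were mostly not called. The same is true of all transcripts tested, of which 17.9% were called in RNA and 13.3% in footprints. Of 7 regulators of proteasome gene transcription and nuclear import, IPO9, an importin, was higher in RNA (0.14 ± 0.04, edgeR adjusted p = 0.0421), and NFE2L2, a stress-activated transcription factor, was lower in footprints (-0.37 ± 0.09, adjusted p = 0.00938). NFE2L1, the factor that drives proteasome genes when degradation is impaired, had -0.01 ± 0.04 in RNA and 0.07 ± 0.08 in footprints. Of 16 proteasome-associated genes 1 was lower in both assays: PAAF1, a chaperone of cap-base assembly, whose RNA averaged 28.2 ± 1.09 CPM in Nterm/Nterm and 47.9 ± 0.671 CPM in wt/wt (SD, n = 3 each). Its change was -0.77 ± 0.06 in RNA (adjusted p = 1.47e-05) and -0.62 ± 0.07 in footprints (adjusted p = 9.17e-06). UBQLN4, a shuttle for ubiquitin-tagged proteins, was higher in RNA (0.17 ± 0.05, adjusted p = 0.0424), and its footprint change of 0.19 ± 0.07 did not pass (adjusted p = 0.0638). SEM1, a lid subunit that the naming rule misses, had -0.11 ± 0.06 in RNA (adjusted p = 0.268) and -0.06 ± 0.08 in footprints. Of 9 genes of ubiquitin supply and extraction, among them UBB and VCP, edgeR called 0 in either assay.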

How the data were processed

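Human induced neurons of 2 LLPH genotypes were profiled by RNA-seq and Ribo-seq, in 4 groups of 3 libraries. The authors deposited whole-number counts, not normalised, for 19972 transcripts. The submitters' processing notes name Salmon 1.4.0, Bowtie2 2.3.4.3, cutadapt 2.4, UMI-tools 1.0.1, limma and edgeR and the build GRCh37, without their roles. The sources used here do not say how shared reads or strand were handled. A second table that the authors deposited gives, per the file headers, the footprint to RNA ratio per genotype with its SD, the ratio of genotypes and a p-value for 10932 transcripts, each with at least 1016 counts in all, and it supplied the gene names.

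Genotype came from titles and descriptions, since the genotype tag of the 6 Ribo-seq samples names the opposite one. The design text of the series belongs to another experiment and was not used. Counts were tested in edgeR 4.0.16 (R 4.3.3) with TMM scaling, filterByExpr, the two-sided quasi-likelihood F test and Benjamini-Hochberg adjustment at 0.05 over all transcripts tested. RNA and footprints were fitted separately, and translational efficiency as the assay-by-genotype interaction in 12 libraries, with TMM within each assay. CPM values use TMM-scaled totals, and a positive log2 change means higher in Nterm/Nterm than in wt/wt. A count of 100 carries a counting error of 10% and a count of 1000 one of 3.16%. Replicates differed beyond counting noise (chi-square per degree of freedom 2.38 to 7.36). Same-numbered RNA libraries of the genotypes deviated together (correlations 0.174 to 0.385, 3 of 3 pairs above 0.1). The replicate numbers were therefore taken to pair the RNA libraries, although Nterm/Nterm replicate 2 and wt/wt replicate 1 also correlated, at 0.127. The pairing comes from these deviations, since no label says what a number shares.

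Alternatives were RLE factors, library totals alone, DESeq2 1.42.0, limma-voom (limma 3.58.1), no filter, a replicate block, leaving out each library and the genotype tag. Members and lists were chosen with earlier results of these data known, and the 10 promoter motifs after their values were seen. Named in full were members called in any fit, interferon-inducible members and the extremes of each subcomplex; a few further members and other genes were named after their values were seen. Promoter windows and gene order are from RefSeq, GRCh38.p14; 42 of the 48 genes matched a window. Levels per coding length were planned and are not given, since no lengths were used here.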

Additional observations from a re-analysis of the deposited data

How the results depend on the processing

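Over 12 alternatives, PSME2 kept its RNA call and PSMB8 its footprint call, and the other 44 transcripts had 0 calls in either assay, with lowest adjusted p-values of 0.0632 in RNA and 0.0630 in footprints. DESeq2 called 3 of the 48 in RNA, without PSMB10 (adjusted p = 0.0554). Leaving out each library gave 1 to 4 calls in RNA and 1 to 4 in footprints, among the interferon-inducible genes. The median footprint change of the 48 was 0.031 under library totals alone, against 0.06. In translational efficiency the alternatives that kept the titles' genotypes gave 0 calls among the 48, but DESeq2 gave no adjusted p for 43 of them; without single libraries PSME1 ranged from -0.0017 (without Nterm/Nterm RNA replicate 3) to 0.20 and PSMB10 from -0.23 to 0.015 (without Nterm/Nterm footprint replicate 3), both changing sign. DESeq2 called 27 of all transcripts in translational efficiency and edgeR 3.

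With the replicate block, 4 proteasome transcripts were called in RNA, 4 in footprints and 0 in translational efficiency, so the pairing changed no call. The edgeR adjusted p-values in RNA were then 9.29e-07 for PSME2, 2.19e-06 for PSME1, 0.000586 for PSMB8 and 0.00641 for PSMB10. The values given gene by gene above are from the fit without the block. Over all transcripts the block raised RNA calls to 4504, against 2624, footprint calls to 2317, against 1800, and translational efficiency calls to 20, against 3. Same-numbered footprint libraries of the genotypes correlated at 0.035 to 0.287, with 2 of 3 pairs above 0.1. These deviations do not decide whether the numbers pair the footprint libraries between genotypes. Same-numbered RNA and footprint libraries correlated at 0.178 to 0.436 in Nterm/Nterm (3 of 3 pairs above 0.1) and at 0.043 to 0.233 in wt/wt (1 of 3), which the fit of translational efficiency without the block leaves out.

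When the genotype tag replaced the titles, the 4 footprint changes were equal in size and positive. In translational efficiency 7 of the 48 were then called, 4 interferon-inducible and 3 others (PSMA7, PSMB5 and PSMC2), against 28.1% of all transcripts (4150 of 14786, where the titles gave 3). Directions of footprints and translational efficiency therefore rest on the titles and descriptions. The column names of the deposited counts give the same genotypes as the titles. The lowest library counts of a member were 111 for PSMG4 in RNA and 155 for PSMG3 in footprints. Depth limits PSMB8 and PSMB10 as well, which had 183 to 405 and 222 to 380 RNA counts in a library.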

Other observations

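The response-element letters were also counted in genes outside the proteasome, as values only. Of the 29 other genes with GAAAGCGAAA in a RefSeq window, 15 were tested in RNA. Of these, 5 were lower in Nterm/Nterm (ARAP1, FAM111A, PARP14, RNF31 and TAP1) and 1 was higher, and in footprints 1 of 15, PARP14, was lower. The 29 include neighbours of members in gene order, TAP1 and TAP2 beside PSMB8 and RNF31 beside PSME2. Whether neighbours share a match was not tested. Of 331 tested genes with the looser GAAANNGAAA, 62 were lower and 25 higher in RNA, while 11.4% of all 8898 tested genes with a window were lower. In footprints 47 of 328 were lower, while 8.01% of all 8804 were. Most genes with either motif were not called, among them PSMG4, whose window holds GAAAGCGAAA. Of all transcripts tested, 17.9% were called in RNA and 13.3% in footprints. A part of these letters in the changes was not tested.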
